A study of Mus musculus with 4 samples.

Results

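The peaks described here are those that the authors' peak lists split over 2 or more exon blocks. The stretch called as enriched thus runs across at least 1 gap between blocks. Each such gap is called a junction here, including gaps that are very short or end at an annotated transcript start. The peaks came from MeRIP-seq of mouse liver. In this assay RNA fragments carrying N6-methyladenosine (m6A) are pulled down with an antibody (IP) and sequenced beside untreated input RNA. A peak was taken as a member if its listed number of blocks was 2 or more, which no enrichment value enters. There were 4491 such peaks among 28750 in all, 2452 of 14057 in the list from Alkbh5flox/flox livers (FF) and 2039 of 14693 in the list from Alkbh5-HKO livers (HKO). FF mice carry a floxed Alkbh5 gene. For the HKO mice the labels do not spell out the abbreviation or name the Cre that was used. Which cells lost the gene is therefore not known here. Per the labels, livers were taken at 9 weeks of age from mice on normal chow, and RNA of 3 mice (300 μg) made up the pool of each genotype. The 4 libraries were an IP and an input per genotype, so that each genotype is 1 pool and 1 peak list, differences between the lists lack any replicate check, and no p-value between genotypes is given. Depth is unknown, because the lists hold no read totals.

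m6A is the most common internal mark of messenger RNA. It is written co-transcriptionally by the METTL3 and METTL14 complex, read by YTH-domain proteins and removed by ALKBH5 and FTO. In mammalian transcripts it is known to be dense in long internal exons and in the last exon around the stop codon, and sparse close to exon junctions, where the exon junction complex binds the spliced RNA. A peak over a spliced junction therefore concerns the part of the transcript where splicing, the exon junction complex and the mark meet. The peak caller, exomePeak, joins the exons of a gene end to end and tests windows along this joined sequence. A peak split over 2 exons thus says that the windows that passed reach across a junction. It does not by itself show enrichment in both exons or a read across that junction.

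Alkbh5 was looked at first as a check of the labels. It had 3 peaks (FF) and 0 (HKO), and 0 of the 3 spanned a junction. Fto, the other m6A eraser, had 1 peak, in the HKO list, within a single exon. Of the 8 hepatocyte marker genes on the list used, 5 had a peak (FF) and 6 (HKO).

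The letters at the edges of the blocks were read where they could be, which was in windows of 300 bp around annotated transcript starts (250 bp before and 50 bp after, 32851 windows, RefSeq, GRCm38.p6, the build of the lists). Donor ends of spanned gaps, where an intron normally opens with GT, are shown for 4 genes in which both lists spanned the same gap. They encode angiotensinogen (Agt), a component of the SMN complex (Gemin7), a fatty acid hydroxylase (Cyp4f14) and a zinc finger repressor (Zbtb7b). Letters are given 5′ to 3′ on the strand of the gene, with the block side of the edge in capitals and the gap in lower case. Where a block is shorter than the 15 capitals, as in Apoe below (3 bp), the capitals run past the end of the peak.
Agt, chr8:124569661-124569690, minus strand: AGGTTGGCGCTGAAGgtaagcagagcactc
Gemin7, chr7:19573294-19573323, minus strand: CAGGGACAGGCCTTGgtgagttctccgtgg
Cyp4f14, chr17:32917130-32917159, minus strand: AATAACTGAAGCCTGgttagttttgcataa
Zbtb7b, chr3:89393462-89393491, minus strand: TAGCTGTTGGAAGAGgtggaagtttatgtc
All 4 gaps open with gt. Among all donor ends inside the windows, 93 of 95 in the FF list (97.9%) and 50 of 50 in the HKO list (100%) did so, while GT stood at 4.98% of all positions of these windows on the gene's strand.

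Gap ends were of 2 kinds. At gap ends that lay in a window but not at an annotated start, AG, the usual acceptor, closed the gap at 15 of 47 sites in the FF list (31.9%) and 9 of 19 in the HKO list (47.4%), against 7.69% of all positions. Examples come from Hnrnpd, which encodes an RNA-binding protein of AU-rich elements, from Tkfc, a triokinase of fructose metabolism, and from Zbed5.
Hnrnpd, chr5:99976576-99976605, minus strand: ttgttaattccctagCCATTCAAACTCCTC
Tkfc, chr19:10604259-10604288, minus strand: tttccactcctgcagGTGCTGCTGTCTCTA
Zbed5, chr5:129908370-129908399, plus strand: attccgtcccttcagGTTTTAACCAGCGAA
Other gaps ended exactly at an annotated transcript start, and the next 5 sites show that kind.
Cyp4f14, chr17:32917073-32917102, minus strand: ctctctgctccttctTGCTTTGCTAGCTCT
Zbtb7b, chr3:89393364-89393393, minus strand: gctaagggtggggggGGAGTTTGGGGGTGG
Apoe, chr7:19698607-19698636, minus strand: ctaagttctgtagttGTGGGAGGGTACCAC
Slc10a1, chr12:80968065-80968094, minus strand: ggttctgcaggttgcATAATCTTTTATTTG
Prkaca, chr8:83976868-83976897, plus strand: caacagaagtttgaaGGGTTCTATCTGCCC
There AG closed 10 of 135 gaps in the FF list (7.41%) and 5 of 80 in the HKO list (6.25%), close to its share of all positions. Such gaps end where RefSeq places the start of a transcript, and whether they are spliced was not tested. They made up 136 of 3144 gaps in the FF list (4.33%) and 80 of 2426 in the HKO list (3.30%). All gaps of a peak were of this kind in 95 FF peaks and 59 HKO peaks, among them the 5 shown here. The terms intron and junction in this text mean a gap between blocks, these included.

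Most spanning peaks crossed a single junction. Peaks of 2 blocks numbered 1976 in the FF list (80.6% of those spanning) and 1735 in the HKO list (85.1%), and 476 (19.4%) and 304 (14.9%) had 3 or more. Peaks just outside the rule, with 1 block, numbered 11605 and 12654. The members lay on 2163 genes (FF) and 1833 (HKO), with 1 spanning peak on 88.3% and 89.9% of them and 3 or more on 30 and 17 genes. Protein-coding genes carried 95.2% and 94.3%. By chromosome the share of peaks that spanned a junction ran from 14.3% (chromosome 18) to 20.4% (chromosome 6) in the FF list and from 10.4% (chromosome 18) to 16.5% (chromosome 3) in the HKO list.

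The exon blocks were unequal. In 2-block peaks the larger block held a median of 84.9% of the exonic length (FF) and 89.4% (HKO). Many junctions were crossed by a short overhang only: the smaller of the peak's first and last blocks was under 10 bp in 455 FF peaks (18.6%) and 366 HKO peaks (17.9%), and was 1 bp in 51 and 40. Its median was 37.0 bp and 31.0 bp. Exons crossed from end to end inside peaks of 3 or more blocks numbered 692 and 387, with a median length of 108 bp in both lists.

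Which side of the junction held the larger block depended on where the peak lay. A peak was placed at the gene start if the centre of its exonic sequence lay within 500 bp of the annotated start, at the gene end if within 1000 bp of the annotated end, and elsewhere otherwise. At gene starts the block before the junction had a median of 157 bp (FF) and 148 bp (HKO), and the block after it 44.5 bp and 42.0 bp. At gene ends the order was the opposite, with 41.0 bp and 24.0 bp before the junction and 334 bp and 363 bp after it. The block after the junction was the larger in 7.44% of 578 FF peaks and 9.80% of the 245 from HKO at starts, and in 97.1% of 275 and 96.4% of 333 at ends. Elsewhere it was the larger in 64.0% (95% Wilson interval 61.2 to 66.8) and 64.6% (61.9 to 67.4). The centre of a peak sets its position here, so near a gene's ends the larger block is partly fixed by the placing itself.

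**Figure D1:**
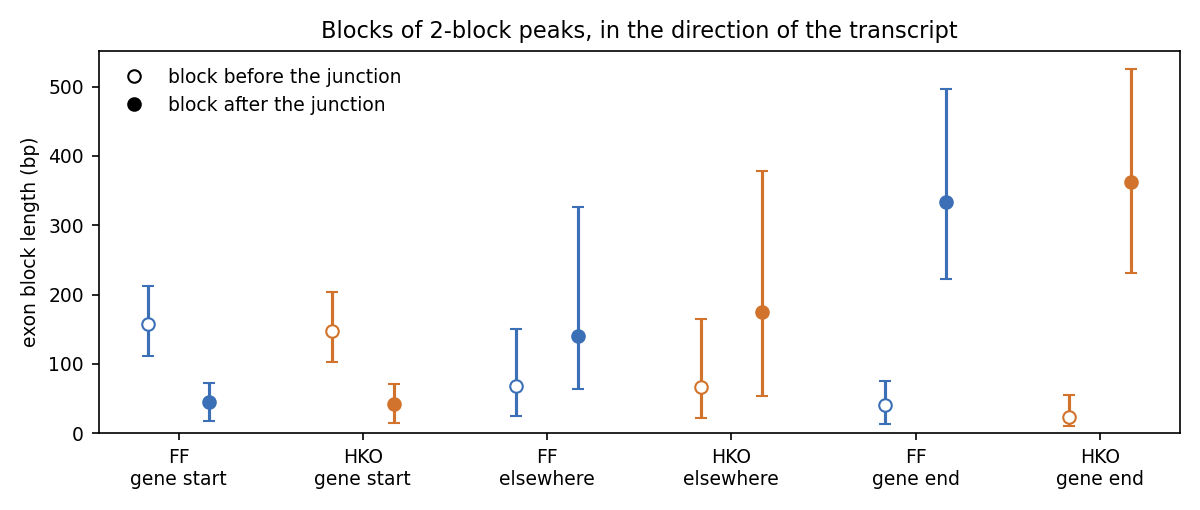
Lengths of the 2 exon blocks of 2-block peaks in bp, by list and position of the peak. Points are medians and bars run from the lower to the upper quartile over peaks; open points are blocks before the junction and filled points blocks after it. The open point is the higher at gene starts (157 and 148 bp) and the filled point at gene ends (334 and 363 bp) in both lists.

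Spanned introns had a median length of 880 bp (FF) and 1058 bp (HKO). They were longer at gene starts (median 1271 bp and 1366 bp) than at gene ends (664 bp and 757 bp). Introns over 10000 bp made up 12.7% and 13.0% of those at starts and 2.93% and 2.90% of those at ends. Gaps under 50 bp, shorter than introns usually are, numbered 66 (2.10%) and 33 (1.36%), and the shortest was 1 bp. Of the spanning peaks, 8 (FF) and 3 (HKO) held another peak of the same list and strand inside an intron, and 0 of these belonged to the same gene.

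Peaks were most often split over a junction at gene starts, and least often at gene ends. In the FF list 652 of 2110 peaks at starts spanned a junction (30.9%, 29.0 to 32.9), 320 of 3679 at ends (8.70%, 7.83 to 9.65) and 1480 of 8268 elsewhere (17.9%, 17.1 to 18.7). In the HKO list the shares were 25.0% of 1085 (22.5 to 27.6), 8.22% of 4501 (7.45 to 9.06) and 15.4% of 9107 (14.6 to 16.1). The lists therefore held a like share at ends, where the intervals overlap, while at starts and elsewhere the FF share was the higher, beyond the counting error of either. Intervals here cover counting error only. As background, the last exon of a mammalian gene is usually its longest, so that fewer junctions lie near gene ends. Over all positions the share was 17.4% (16.8 to 18.1) for FF and 13.9% (13.3 to 14.4) for HKO. Where the smallest block had to hold 30 bp, it was 9.77% and 7.09%.

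The lists differed in the peaks they did not share. A peak was called list-specific if its exon blocks shared no base with a peak of the other list on the same strand. Of FF spanning peaks, 782 (31.9%) were list-specific, against 25.2% of all FF peaks and 23.8% of FF single-block peaks. Of HKO spanning peaks, 364 (17.9%) were list-specific, against 28.5% of all HKO peaks and 30.2% of HKO single-block peaks. Spanning peaks were thus over-represented among the peaks particular to the FF list and under-represented among those of the HKO list, by counts alone and with 1 pool each. Read the other way, 22.1% of FF-specific peaks (20.8 to 23.5) and 8.70% of HKO-specific peaks (7.89 to 9.60) spanned a junction, while of the shared peaks 15.9% did so in either list. Under a stricter rule (q at or under 1e-05, fold enrichment over input at or above 2), 336 FF spanning peaks (13.7%) and 162 HKO spanning peaks (7.95%) were list-specific, against 6.40% and 8.87% of all peaks.

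Gene starts held part of this difference. Among FF-specific spanning peaks 315 of 782 were centred at a gene start (40.3%, 36.9 to 43.8), and among HKO-specific ones 40 of 364 (interval 8.17 to 14.6%). Single-block peaks differed in the same direction, with 33.1% of FF-specific and 4.11% of HKO-specific ones at a start, so a gene-start excess in the FF list was not limited to spanning peaks. Away from gene starts and ends the lists also differed: 431 of 1729 FF-specific peaks spanned a junction there (24.9%, 22.9 to 27.0) and 276 of 2594 HKO-specific peaks (10.6%, 9.51 to 11.9). At starts the shares were 25.7% of 1227 and 20.3% of 197, with overlapping intervals. At ends they were 6.17% of 583 and 3.45% of 1391. Among shared peaks the lists stood apart at starts, where 38.2% of 883 FF peaks (35.0 to 41.4) and 26.0% of 888 from HKO (23.2 to 29.0) spanned a junction.

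**Figure D2:**
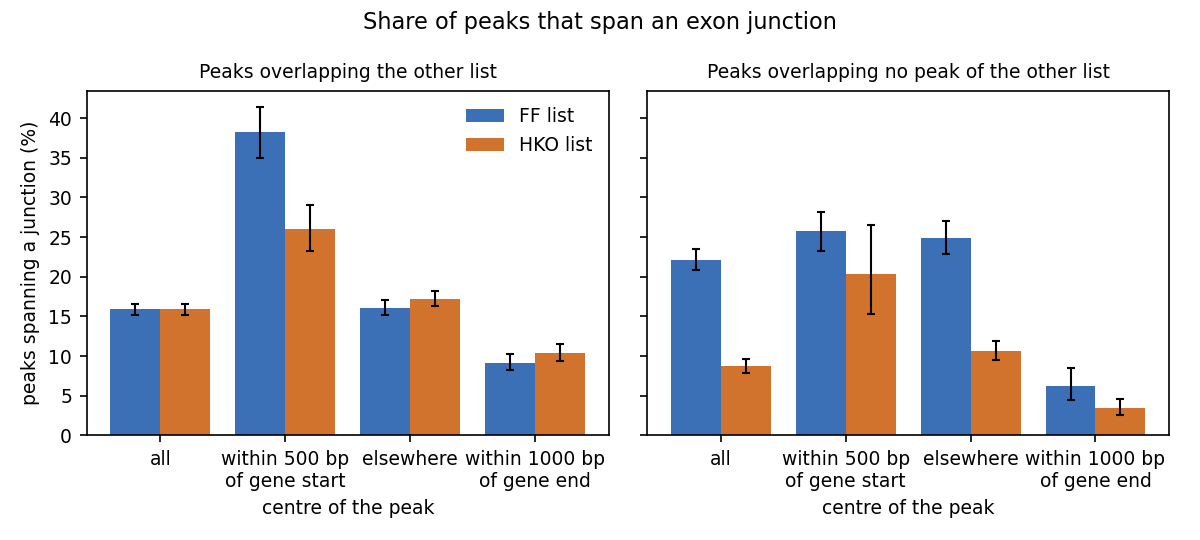
Share of peaks that span an exon junction, in percent, by position of the peak's centre, for peaks that overlap the other list (left) and list-specific peaks (right). Bars are shares of peaks in 1 list per genotype and error bars 95% Wilson intervals. Shared peaks span a junction equally often in both lists over all positions (15.9%), while list-specific peaks do so in 22.1% (FF) and 8.70% (HKO).

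Exonic length was set beside this, since longer peaks overlap more readily. Spanning peaks were longer than single-block peaks (median 269 bp against 241 bp in the FF list, 301 bp against 241 bp in the HKO list). In each length bin up to 500 bp, FF spanning peaks overlapped the other list less often than single-block peaks, and HKO spanning peaks more often. In the HKO list the intervals of spanning and single-block peaks overlap at 221 to 320 bp (77.7 to 85.6 against 74.7 to 78.1) and at 321 to 500 bp (90.2 to 94.8 against 89.4 to 91.6). At up to 160 bp, 28.1% of FF spanning peaks overlapped an HKO peak against 47.3% of FF single-block peaks, and at 161 to 220 bp 46.6% did so against 65.8%. In the HKO list spanning peaks overlapped an FF peak in 51.8% against 36.0% at up to 160 bp and in 69.9% against 60.0% at 161 to 220 bp. Over 500 bp all 4 shares lay between 98.2% and 99.0%. By position, FF spanning peaks overlapped the HKO list less often than FF single-block peaks elsewhere (70.9% against 80.9%) and more often at starts (51.7% against 37.4%) and ends (88.8% against 83.7%). HKO spanning peaks overlapped the FF list more often than single-block peaks at all 3 positions (85.2% against 80.7% at starts, 87.0% against 67.5% at ends, 80.3% against 69.9% elsewhere), although at starts the intervals overlap, as they do for FF peaks at ends.

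**Figure D3:**
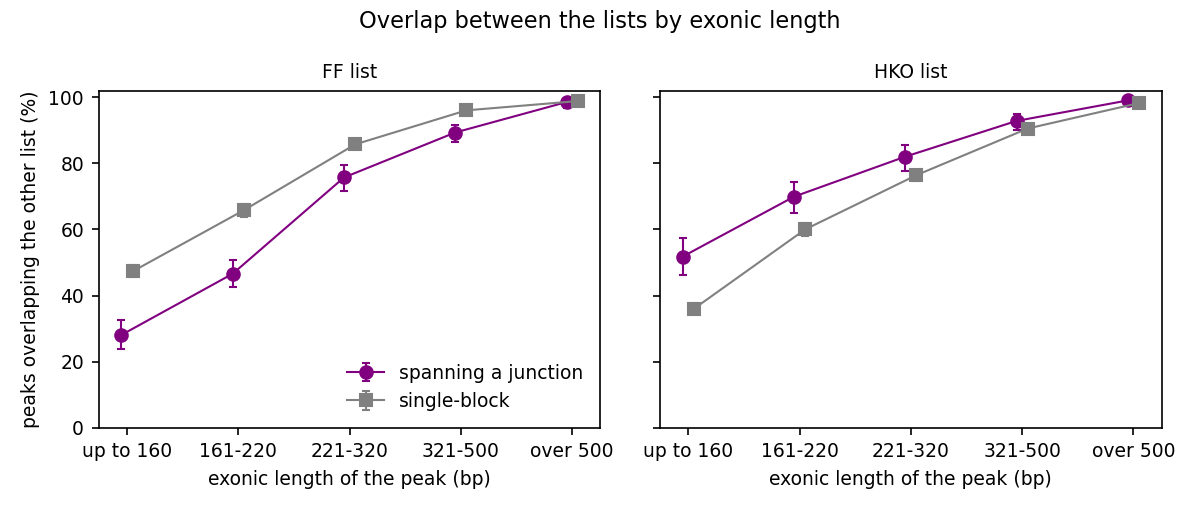
Share of peaks overlapping a peak of the other list, in percent, by exonic length of the peak in bp, for spanning and single-block peaks of the FF list (left) and HKO list (right). Points are shares and bars 95% Wilson intervals. Spanning peaks lie under single-block peaks up to 500 bp in the FF list (28.1% against 47.3% in the shortest bin) and over them in the HKO list (51.8% against 36.0%).

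What the other list held at each spanning peak was then followed. In the FF list 1194 spanning peaks (48.7%, 46.7 to 50.7) met an HKO peak that spanned the same intron, 463 (18.9%) met single-block HKO peaks only, 13 met a spanning peak over another intron and 782 met none. In the HKO list the numbers were 1200 (58.9%, 56.7 to 61.0), 459 (22.5%), 16 and 364. Where the partner had a single block, the smaller of the peak's first and last blocks was short. Its median was 25.0 bp and 19.0 bp, against 43.0 bp and 41.0 bp where the same intron was spanned. Over genes, 1194 had a spanning peak in both lists, which is 55.2% of the FF genes and 65.1% of the HKO genes. The other 969 FF genes split into 700 with single-block peaks in the HKO list and 269 with no HKO peak. The other 639 HKO genes split into 510 and 129. Genes without a peak in the other list were thus 12.4% (FF) and 7.04% (HKO) of the genes with a spanning peak. The like share over all genes with a peak was not computed, so these counts say nothing particular about spanning peaks. A missing peak does not show an unmethylated RNA, since RNA of low abundance may go uncalled.

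The 1210 pairs over the same intron were 331 bp of exon long at the median (FF) and 330 bp (HKO). Their limits were the same at both ends in 194 pairs (16.0%) and at 1 end in 534 (44.1%). Fold enrichment, the authors' ratio of IP over the list's own input, had a median of 8.25 (FF) and 7.54 (HKO). The folds of a pair were only loosely related (Spearman's rho 0.373 over the 1210 pairs, which share their introns and are not independent samples). Within the FF list the median fold of these pairs was highest at gene starts (9.40, 191 pairs), lower elsewhere (8.62, 765 pairs) and lowest at ends (6.79, 191 pairs). Within the HKO list the order was the opposite, with 5.24, 8.24 and 9.55. Among pairs of single-block peaks the FF medians were 10.2 at starts and 6.92 at ends, and the HKO medians 5.94 and 10.6. Folds of the 2 lists come from separate IP reactions, so values side by side give no direction of change. FF peaks were the longer of the pair in 53.9% and HKO peaks in 13.1% at starts, and in 31.4% and 46.6% at ends.

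**Figure D4:**
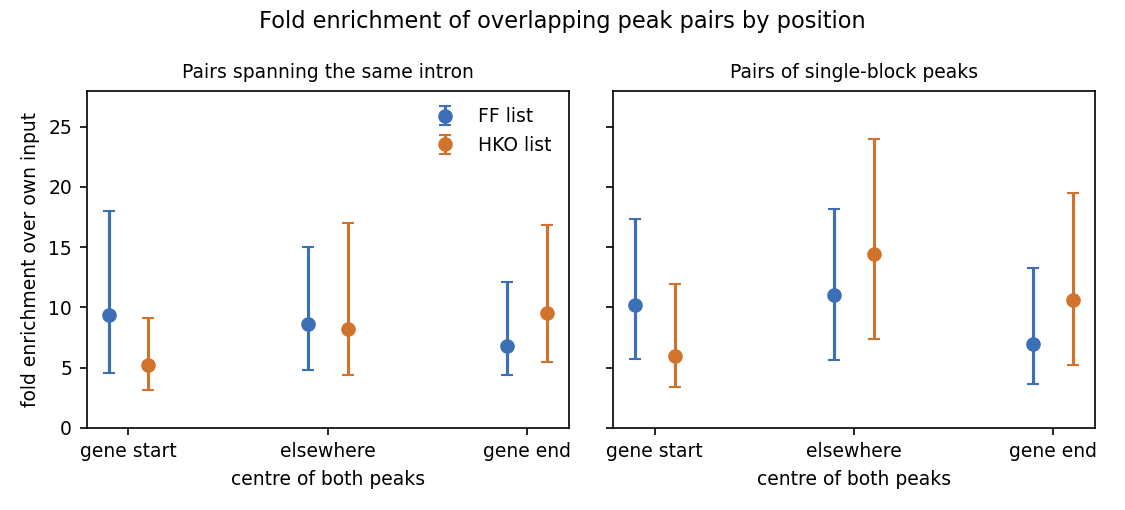
Fold enrichment over the list's own input, on a linear axis, for overlapping pairs of peaks that span the same intron (left) and pairs of single-block peaks (right), by position of both centres. Points are medians over pairs and bars run from the lower to the upper quartile. Among pairs spanning an intron the FF median falls from gene start to gene end (9.40, 8.62, 6.79) and the HKO median rises (5.24, 8.24, 9.55).

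The strongest junctions common to both lists were ranked by the lower of the 2 folds, with a q of 1e-05 or less in each. Irs2, the insulin receptor substrate that carries the insulin signal in liver, stood at the top, with a fold of 54.8 (FF) and 62.8 (HKO). Its peaks (chr8:10986117-11004500 and chr8:10985968-11004500, minus strand) joined 31 bp of one exon across 17455 bp to 898 bp and 1047 bp of the next. Zmynd8, a chromatin reader, had folds of 52.5 and 47.1 over an intron of 4419 bp, and Traf3ip1, a protein of ciliary transport, 49.3 and 58.6. Arglu1, a cofactor in splicing and nuclear receptor signalling, had folds of 65.3 and 44.4, over 2 exons (FF) and 4 (HKO). Ybx1, an mRNA-binding cold shock protein, had peaks of identical limits (chr4:119293800-119294588, minus strand, 385 bp and 6 bp of exon) with folds of 37.6 and 37.1, and q-values too small for the lists to hold. Rhoq, a small GTPase, had identical limits too, with 1 bp of one exon and 537 bp of the next, and folds of 58.7 and 36.5. The other 4 were Gm26684 (50.1 and 103.0), Gm29998 (88.5 and 38.2), 2610507I01Rik (46.2 and 83.3) and LOC114841036 (61.1 and 41.6). The larger exon block was over 200 bp in each of these peaks.

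The FF-specific spanning peaks with the smallest p-values and a fold of 2 or more fell on genes of lipoprotein, clotting and mitochondrial proteins among others. Apoa2, an apolipoprotein of high-density lipoprotein, led with 45 bp and 73 bp of exon across 162 bp (chr1:171225077-171225356, plus strand, fold 2.63). Serpinc1, antithrombin, followed with 105 bp and 14 bp (fold 3.10), then Lrg1, a secreted leucine-rich glycoprotein (fold 3.30). Ndufb7 and Ndufa2, subunits of respiratory complex I, had folds of 3.90 and 2.57, and Igfbp2, a binding protein of insulin-like growth factors, 2.27. Fpgs, which adds glutamates to folate, had a fold of 8.62 over 3 exons, and Rexo2, an oligoribonuclease, 7.51. Slc9a3r1, a scaffold protein of the apical membrane, had a fold of 2.52 over 681 bp. Ppp1cc, a catalytic subunit of protein phosphatase 1, stood apart with a fold of 61.9 (chr5:122158312-122168200, plus strand, 304 bp and 26 bp of exon). By position 3 of these 10 lay at the gene start, 1 at the end and 6 elsewhere.

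Of the 10 HKO-specific peaks ranked in this way, 7 lay at gene ends, while of all 364 such peaks 49 did so (13.5%) and 276 lay elsewhere (75.8%). Mup11 and Mup17, major urinary proteins, had folds of 8.01 and 7.48 over 253 bp of exon after the junction and 69 bp and 39 bp before it. Cyp3a25, a cytochrome P450 of drug metabolism, had a fold of 4.80, and Mug2, a murinoglobulin protease inhibitor, 17.4. These 4 belong to families of near-identical genes, so reads can be placed on the wrong copy and their values are uncertain. Hamp, which encodes the iron hormone hepcidin, had a fold of 5.10 (chr7:30942368-30942683, minus strand, 19 bp and 214 bp of exon across 83 bp). Echdc2 had a fold of 10.5 and BC024386 of 2.86 at their ends. Tdo2, the enzyme that opens the tryptophan ring, was the only one of the 10 at a gene start, with a fold of 3.33. Fars2, a mitochondrial tRNA synthetase, had a fold of 27.4 and C730036E19Rik 8.03, both away from the gene's ends. Of all list-specific spanning peaks, 503 of the 782 from FF (64.3%) and 231 of the 364 from HKO (63.5%) lay on genes with a peak elsewhere in the other list. The like share over all list-specific peaks was not computed, so these shares are not particular to spanning peaks.

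The peaks with the most blocks show how a stretch of enriched exons was divided in each list. Os9, a lectin of endoplasmic reticulum quality control, had a FF peak of 9 blocks and 1404 bp of exon (chr10:127096050-127099969, minus strand, fold 8.62). The HKO list covered the same stretch with a peak of 8 blocks (1016 bp, fold 4.73) and a single-block peak of 180 bp (fold 1.65). Myh9, non-muscle myosin heavy chain, had a FF peak of 9 blocks and 1260 bp (fold 15.0), where the HKO list had a pair of 2-block peaks of 241 bp and 330 bp (folds 4.20 and 3.39). Eif3a, a subunit of a translation initiation factor, had 8 blocks and 1975 bp in the FF list (fold 6.75) and 3 separate peaks of 390 bp, 899 bp and 330 bp in the HKO list (folds 3.90, 10.1 and 4.09). Col18a1, a basement membrane collagen built from many short exons, had the most blocks of all, 13 over 628 bp of exon (fold 3.29), with no HKO peak over that stretch. The FF peak of Myh14, another non-muscle myosin, had 7 blocks (1141 bp, fold 11.6). In the HKO list the next after Os9 were Slc38a10, Pdap1 and Slc29a1 with 6 blocks each (folds 8.60, 4.54 and 6.28) and Cald1 with 5 (fold 25.2), and all of them overlapped a FF peak over the same intron.

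**Figure D5:**
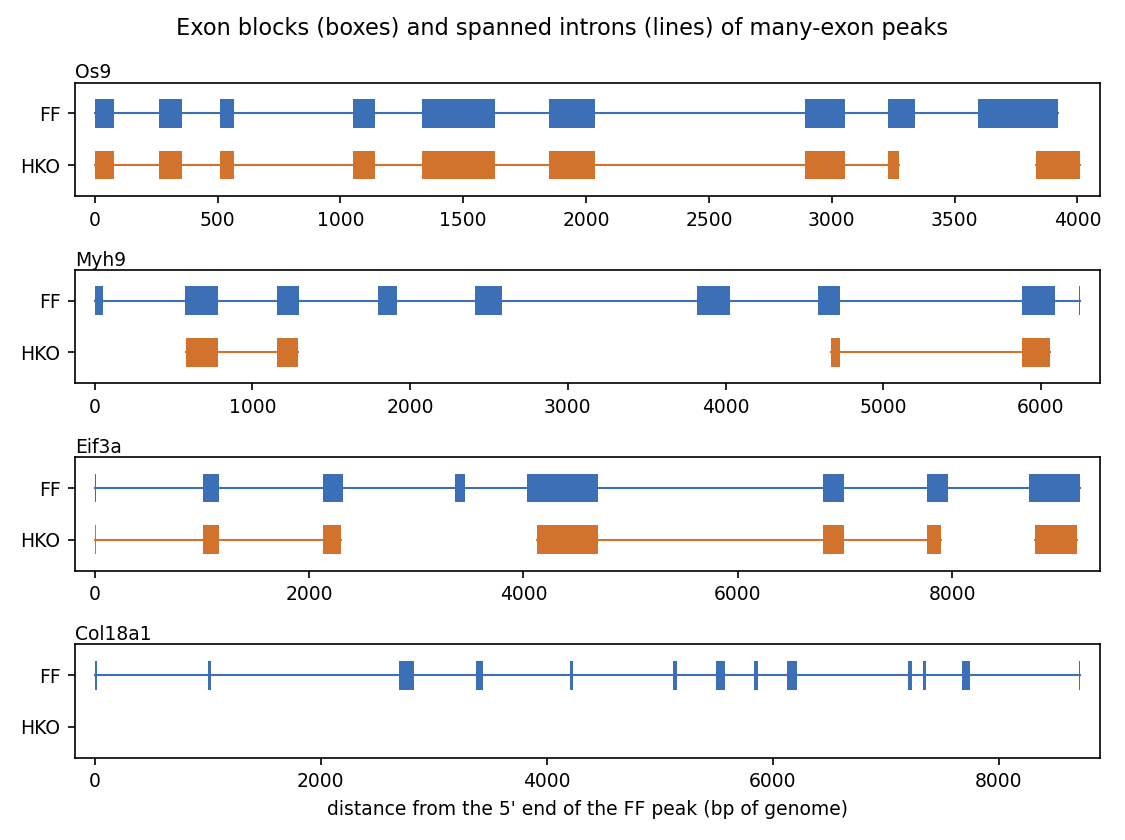
Exon blocks (boxes) and spanned introns (lines) of the FF peaks with the most blocks in Os9, Myh9, Eif3a and Col18a1, with the HKO peaks over the same stretch, drawn to scale against distance in bp of genome from the 5′ end of the FF peak, in the direction of the transcript. The FF list has 1 peak in each panel, and the HKO list 2 in Os9, 2 in Myh9, 3 in Eif3a and 0 in Col18a1.

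The longest spanned introns recurred in both lists for some genes. The non-coding gene A330093E20Rik had the longest in each, 151419 bp, with folds of 6.01 and 9.30. Lipc, hepatic lipase, had peaks of identical limits across 99297 bp (chr9:70835158-70934664, minus strand, 189 bp and 21 bp of exon, folds 5.25 and 6.79). Mrps28, a mitochondrial ribosomal protein, was spanned over 97571 bp at its end with folds of 25.1 and 5.58. Chn2 (133308 bp, fold 9.66) and Colec12 (119267 bp, fold 12.1) were FF-specific and lay at gene starts. Tshz2 (102874 bp, fold 32.2) overlapped a FF peak without the same intron, and Plcl2 (96357 bp, fold 5.94) with it.

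Of the 5 genes with the most spanning peaks, Myh9 had 4 in each list, of 4 and 6 peaks in all. Chd4, a chromatin remodeller of the NuRD complex, had 5 (FF) and 2 (HKO), and both HKO peaks spanned an intron that the FF list spanned too. Its other 3 FF peaks, with folds of 4.70, 4.27 and 4.27, were list-specific. Rrbp1, a ribosome receptor of the endoplasmic reticulum, also had 5 and 2. Its intron of 20732 bp at the gene start was spanned in both (folds 8.88 and 2.08), and 3 FF peaks with folds of 2.21, 1.92 and 2.68 were list-specific. Golim4, a Golgi membrane protein, had 3 and 4, and Myo18a, an unconventional myosin, 4 and 3. In Golim4 the peak chr3:75886337-75890586 (minus strand) had the same limits in both lists, with folds of 5.09 and 6.10.

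Among genes of the mark itself, readers were spanned more often than writers. Of the peaks on readers, 8 of 19 (FF) and 4 of 16 (HKO) spanned a junction, against 2 of 24 and 2 of 22 on writers. Over all peaks the share was 17.4% (FF) and 13.9% (HKO), and the counts of the gene lists below are to be read beside it. Ythdf2, the reader that leads to mRNA decay, had folds of 15.9 and 40.2 over the same intron. Ythdf3 had peaks over 2 introns in the FF list (folds 12.3 and 7.20) and 1 in the HKO list (37.8). Ythdc1, the nuclear reader that acts in splicing, had folds of 17.7 and 45.0 over a shared intron and a further FF-specific peak at its start (52.5). Hnrnpa2b1 had folds of 3.37 and 2.77 over a shared intron. Among writers, Zc3h13 was spanned in both lists (21.1 and 10.2), Rbm15 in the FF list (9.73) and Wtap in the HKO list (20.3). The spanning peaks lay on 5 reader genes and 3 writer genes, and the difference was not tested.

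The exon junction complex and its partners in nonsense-mediated decay were themselves often spanned, in 14 of 34 FF peaks and 8 of 32 HKO peaks, set beside 17.4% and 13.9% of all peaks. Magoh, a core subunit, had peaks over the same 3 exons, 231 bp in both lists, with folds of 9.53 and 8.40. Its partner Rbm8a had a FF-specific peak (6.27). Casc3, the RNA-binding core subunit, had a 4-block peak at its start in the FF list (18.0) and a 2-block peak elsewhere in the HKO list (10.8). Upf1, the helicase of nonsense-mediated decay, had folds of 8.36 and 3.44 at its end and a further FF peak at its start (41.5). Upf3a had folds of 16.7 and 3.53, and Upf3b 6.62 and 5.76 in a pair of FF peaks where the HKO list had 1 peak of 5 blocks (8.32). Acin1 had 2 in each list, and Pnn folds of 27.4 and 2.86. Of the 14 FF peaks 4 were list-specific and of the 8 HKO peaks 0. Over all spanning peaks 31.9% (FF) and 17.9% (HKO) were list-specific, and over all peaks 25.2% and 28.5%.

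Splicing factors gave 12 of 44 and 11 of 41. Prpf4b, a splicing kinase, had the highest folds of the group in pairs (32.1 and 64.9). Snrnp70, of the U1 snRNP, had 15.2 and 8.73 at its end, Luc7l3 6.31 and 6.79, and Srsf11 5.27 and 6.81 over the same introns. Srrm2, a spliceosomal scaffold, had 27.6 and 4.79. Of 11 genes spanned in either list, 9 were spanned in both.

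Secreted proteins of the hepatocyte had 18 spanning peaks of 45 (FF) and 14 of 44 (HKO), and coagulation and complement factors 12 of 27 and 8 of 42. Fibrinogen chains were spanned in both lists, with folds of 3.45 and 7.78 for Fga at its start, 1.52 and 11.5 for Fgb at its end, and 1.24 and 2.21 for Fgg. Vtn, vitronectin, had peaks of 208 bp in each list (4.19 and 10.2). Cp, ceruloplasmin, had a pair of shared introns, with folds of 3.22 and 3.95 at its start and 2.96 and 17.9 elsewhere. Apoe had peaks at its end (4.42 and 3.01) and the one across its annotated start shown above (3.93 and 5.06). Alb, albumin, had a spanning peak in the FF list alone, at its start, with a fold of 1.57, and Apoc3 likewise (4.41). Igf1 (3.13) and Orm1 (2.95) were spanned in the HKO list alone. Of the clotting factors F9 (2.96 and 14.7), F11 (2.51 and 6.35), Klkb1 (2.33 and 3.19) and Proc (6.96 and 4.15) shared an intron. So did the complement genes C1s1 (3.79 and 3.36) and C3 (1.83 and 1.82). Both FF peaks of F2, prothrombin, were list-specific (1.30 and 2.30).

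P450 genes and their reductase had 3 spanning of 19 FF peaks (15.8%) and 10 of 28 HKO peaks (35.7%), set beside 17.4% and 13.9% of all peaks. Cyp3a11 (7.43 and 3.87), Cyp3a13 (8.67 and 13.7) and Cyp4f14 (16.4 and 16.6) shared an intron. Cyp7a1, the rate-limiting enzyme of bile acid synthesis, was spanned in the HKO list (24.7), as were Cyp7b1 (5.69), Cyp1a2 (7.99) and Por (4.14), and these 4 overlapped FF peaks within a single exon or over another intron. The Cyp3a genes are close copies, so their values are uncertain. Cholesterol genes had 3 of 27 (11.1%) and 7 of 37 (18.9%). Of all their peaks, spanning or not, 10 of the 27 and 18 of the 37 were list-specific, where over all peaks 25.2% and 28.5% were. The differences between the lists in both groups were not tested. Msmo1, a sterol oxidase of the pathway, had folds of 4.19 and 3.83 over the same intron at its end. Cyp51 (3.08), Fdft1 (6.42), Insig2 (3.21) and Lss (4.67) had HKO-specific spanning peaks, and Msmo1 had a FF-specific one at its start (2.63).

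Enzymes of the urea cycle and amino acid breakdown gave 9 of 25 and 6 of 31. Arg1, which releases urea, had folds of 4.16 and 8.53 at its end and Asl 4.75 and 3.21 at its start. Otc (3.87) and Gls2 (4.63) were spanned in the FF list alone, at the start, and Cbs (5.48), Sds (1.75) and Tat (5.07) had FF-specific peaks. Cth (3.14) and Tdo2 (3.33) had HKO-specific ones.

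Lipogenic genes gave 4 of 26 and 6 of 31, and genes of fatty acid oxidation 4 of 30 and 4 of 31. Agpat2 had folds of 3.52 and 13.8 at its end, and Nr1h3, the oxysterol receptor LXRα, 9.63 and 10.8. Mlxipl, the carbohydrate response factor ChREBP, had a FF-specific peak at its start (5.87) and an HKO peak elsewhere (2.68). Srebf1 (2.69), Scd1 (2.17) and Fasn (2.33) had small HKO-specific peaks of 90 bp, 121 bp and 91 bp. Acads had 9.87 and 6.89 at its end, and Ppara a peak of 1171 bp in the HKO list (17.0) that overlapped a FF peak.

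Genes of glucagon signalling and gluconeogenesis gave 7 of 40 and 5 of 40, near the share over all peaks. Gcgr, the glucagon receptor, had peaks of 539 bp at its end, across a gap of 6 bp, with folds of 3.20 and 9.72. Gnas, the stimulatory G protein subunit, had 8.73 and 2.82, and Prkaca, the catalytic subunit of protein kinase A, 38.0 and 3.11 across the annotated start shown above. Foxo1, the transcription factor of the fasting liver, had 14.8 and 68.7. Pcx, pyruvate carboxylase, had 2 spanning FF peaks (2.31 and 1.59) and 1 HKO peak (4.24), all 3 of them list-specific.

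Clock genes gave 7 of 38 and 8 of 39. Nr1d2, which encodes the repressor REV-ERBβ, had a fold of 6.61 (FF) and 268.0 (HKO) over the same intron, with log10 q of -32.4 and -112.0. Hlf had 28.2 and 4.01 over the same intron, in peaks with 300 bp of exon each, and Tef 21.5 and 5.09. Per1 was spanned in the FF list alone (log10 q -42.4). Transcription factors of the hepatocyte gave 11 of 56 and 6 of 49. Hnf4a had folds of 65.0 and 17.2, Nr5a2 15.6 and 79.2 at the stronger of its shared introns, and Nr1i3, the xenobiotic receptor CAR, 17.2 and 2.98 at its start. Foxa2 had 2 in the FF list (19.8 and 14.1) and Rxra 2, both list-specific (21.1 and 1.78).

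A pair of gene lists was picked for contrasting exon structure. Proteasome subunits, whose coding sequence is cut into many short exons, were spanned in 10 of 15 FF peaks (66.7%) and 7 of 12 HKO peaks (58.3%). Psma4 (3.13 and 13.2, at its end), Psma6 (3.04 and 4.13), Psmd2 (16.4 and 7.83), Psmd3 (8.50 and 3.89, at its start) and Psmd4 (4.90 and 5.18, at its end) shared an intron. Psmb7, Psmc2, Psmd1 and Psmd12 had FF-specific peaks with folds between 2.76 (Psmd12) and 27.4 (Psmd1). Psmd2 also had an HKO-specific spanning peak (fold 1.54). List-specific were thus 4 of the 10 FF and 1 of the 7 HKO spanning peaks, set beside 31.9% and 17.9% of all spanning peaks. Zinc finger genes, whose fingers lie in 1 long exon, were spanned in 4 of 56 (7.14%) and 3 of 65 (4.62%), with Zbtb7b in both lists (11.4 and 11.1, besides the start shown above). Collagens and matrix genes gave 3 of 17 and 1 of 24, all on Col18a1.

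Markers of the cell types a liver can hold were set beside these. Kupffer cell and macrophage markers were spanned in 5 of 14 and 5 of 12 peaks, on C1qa, C1qb, C1qc, Cd5l and Marco in the FF list and on the same genes without C1qb in the HKO list. The folds were 13.6 and 8.03 for C1qa, 5.92 and 4.51 for C1qc, 5.48 and 3.14 for Marco and 4.07 and 4.67 for Cd5l. Cd5l also had an HKO-specific spanning peak at its start (17.0). Hepatocyte markers gave 2 of 16 and 1 of 17, stellate cell markers 2 of 14 and 1 of 15, endothelial markers 1 of 12 and 0 of 12, cholangiocyte markers 0 of 3 and 0 of 2, and leukocyte markers 0 of 1 and 1 of 1. In whole liver, more cells of a type and more methylated RNA per cell cannot be told apart.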

How the data were processed

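MeRIP-seq gave 1 deposited peak list per genotype, IP against its own input. Per the series design text, the authors called peaks with exomePeak 2.16.0 at a q-value of 0.05. The genome build was GRCm38.p6, and BWA 0.7.12, fastp 0.19.11 and HOMER 4.9.1 were used, per the submitters' processing notes. BWA does not align reads across splice junctions, and its part in the junction peaks was not tested. The sources disagree on the antibody (Synaptic Systems or Millipore) and library kit (New England Biolabs or NuGEN), which bears on strand and coverage. The deposited score column is a p-value per peak, since its logarithm matched the deposited log10 p-value within 0.02, and the deposited q-value is given as log10. The deposited fold is IP divided by input, as the authors computed it. All 3 are the authors' values and serve only to describe, rank or filter peaks.

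Exonic length is the sum of the block sizes and an intron the gap between blocks. Overlap needed 1 shared exonic base on the same chromosome and strand. Coordinates are given from base 1. Gene starts and ends come from RefSeq gene spans, and 4 FF and 1 HKO spanning peaks without a span counted as elsewhere. Intervals are 95% Wilson intervals. Genes were named by rank (lower fold of a pair, smallest p-value, most blocks, longest introns, most spanning peaks) or as members of the gene lists. The members and gene lists were chosen with earlier results of these data known, and the sequences shown were picked after they were read. The overlap and intron steps were tested on simulated data. Python 3.11.15, pandas 2.3.3, numpy 2.4.6 and matplotlib 3.10.9 were used. Alternatives were a stricter q, longer blocks, gaps and overlaps, other windows and lists of equal length. Transcript parts and sequence motifs within peaks were not analysed here. Values of a few gene-list members are not reported here.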

Additional observations from a re-analysis of the deposited data

How the results depend on the processing

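Of 36 recomputed values of 8 results, 20 stayed inside the counting interval of the reported value and 16 moved out of it. Some of the 20 had no room to move or did not change at all. The FF list is the shorter, so lists of equal length left its spanning share as it was. Looser matching of gap ends (within 5 bp, or either end the same) returned the same counts, 1194 (FF) and 1200 (HKO). The order of the lists was kept for each of the 8 under every alternative tried. The share of peaks spanning a junction moved to 21.1% (FF) and 17.0% (HKO) at a q of 1e-05 or less, and to 9.77% and 7.09% where the smallest block had to hold 30 bp. It moved to 16.8% in the FF list without gaps that end at an annotated start, and to 15.4% in the HKO list away from gene starts and ends. Both these alternatives were chosen after the data were seen. The share overlapping the other list moved to 57.4% (FF) and 69.6% (HKO) when 50% of both peaks had to be shared, to 71.8% (FF) at the stricter q in both lists, and to 70.9% (FF) and 80.3% (HKO) away from gene starts and ends. FF peaks over an intron that the HKO list spans moved to 53.4% at the stricter q. List-specific spanning peaks at gene starts moved to 27.9% (FF) and 6.87% (HKO) with a window of 200 bp, and to 44.4% and 7.78% at the stricter q. The smaller windows and stricter overlaps lower a share by construction. The cause of the other moves was not tested. With 1 pool per genotype and unknown depth, intervals cover counting error only. No paired analysis was possible because each genotype has 1 pool and the result comes from no test.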
